A study of Mus musculus with 70 samples.

Results

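The genes described here are those of the lysosome's acid-making pump and of its membrane: the subunits of the vacuolar H+-ATPase (V-ATPase), its accessory subunits, the lysosome-associated membrane proteins Lamp1, Lamp2 and Lamp5, the Ragulator complex (Lamtor1 to Lamtor5), and the cathepsins other than Ctsb and Ctsd. They were picked out by a rule on gene symbols, which was set with earlier results of these data known. Of 14260 genes in the deposited table, 37 fell under the rule: 10 of the V1 sector of the pump, 8 of its V0 sector (with the pseudogene Atp6v0c-ps2), 2 accessory subunits, 3 Lamp genes, 9 cathepsins and 5 of Ragulator. All 37 are in the table for every animal.

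The V-ATPase pumps protons into lysosomes, endosomes and synaptic vesicles. Its V1 sector splits ATP in the cytosol and turns the V0 ring in the membrane, which carries the protons across. The acid activates the cathepsins, proteases that digest what autophagy and endocytosis deliver, while the Lamp proteins coat the inside of the lysosomal membrane. On the outer face Ragulator anchors the Rag GTPases, which bring mTORC1 to the lysosome when nutrients are plentiful. mTORC1 in turn keeps the transcription factor TFEB out of the nucleus, and TFEB binds an E-box in the promoters of many lysosomal genes. In brain the pump is abundant in neurons, where it also loads synaptic vesicles, and cathepsin S (Ctss) is a product of microglia.

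RNA came from the hippocampus of 1 hemibrain per mouse. The mice were APP23 transgenics (TG; B6.Cg-Tg(Thy1-APP)3Somm/J), in which the Thy1 promoter drives an APP transgene, or their non-transgenic littermates (NTG). They were fed ad libitum (ALF) or held on time-restricted feeding (TRF), with food only from ZT15 to ZT21 (6 h), where ZT0 is lights on and ZT12 lights off. Mice entered TRF when 6 to 9 months old, and all mice were 10 to 13 months old when killed, at ZT0, ZT6, ZT12 or ZT18. All groups lived alone in light-tight cabinets on the same light cycle, per the labels, and some animals had earlier passed through constant darkness and a phase shift. No sample's sex is given. The 69 animals were 16 NTG and 19 TG fed ALF (NTG-ALF and TG-ALF) and 16 NTG and 18 TG held on TRF (NTG-TRF and TG-TRF), with 25 killed at ZT0, 23 at ZT12, 11 at ZT6 and 10 at ZT18. Reads over the listed genes numbered 27.9 to 47.1 M per library (median 37.2 M). A value below is a normalized count, the authors' read count per gene divided by 1 factor per library. In whole tissue, fewer cells of a type and less RNA per cell cannot be told apart.

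Several features of these libraries touch the members and are given first. Animals with numbers of 300 and up in their titles made up all 11 at ZT6 and all 10 at ZT18, but 2 of 25 at ZT0 and 1 of 23 at ZT12, so time of sacrifice and number series overlap; what the numbers stand for is not given in the sources used here. In 5 animals the median correlation with the others over all genes was 0.940 to 0.970, against a median of 0.980 over all animals: 2 NTG-ALF animals (number 1 and 1 other) and TG-ALF animals 5 and 16, all killed at ZT0, and 1 TG-TRF animal killed at ZT12. All 10 excitatory neuron markers were above 0 in every animal. So were the measured markers of every other cell or tissue searched except choroid plexus, so this does not test the tissue's origin. Markers of choroid plexus, a neighbouring tissue, varied widely, with a summed level of 7292 to 338323 normalized counts between animals of NTG-TRF alone, and 4 of its 19 markers were listed at 0 in at least 1 animal.

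Those 5 animals held the extremes of most members. Of the 37 members, 26 had their lowest value and 12 their highest in 1 of the 5. NTG-ALF animal 1 was lowest for 15 members and the other NTG-ALF animal for 10. In animal 1 the 13 members with less than 2500 bases of exon stood at a median of -0.81 on the log2 scale against the median of the other 64 animals, and the 24 longer members at -0.32. In the other NTG-ALF animal these medians were -0.89 and -0.22. TG-ALF animal 16 showed -0.61 and -0.08, and animal 5 showed -0.62 and -0.12. In all 4 the short members stood lower than the long ones. The TG-TRF animal went the other way, with medians of 0.40 and 0.09. Atp6v1f, a small V1 subunit, had 826.5 and 875.9 normalized counts in the NTG-ALF pair against a median of 2574 in the other 64 animals. Lamtor5 had 351.2 and 367.0 in the same animals against a median of 961.7. Counts of members called over the 4 times and between opposite times, with the groups averaged, are therefore given with and without these 5 animals. The cause of this pattern was not tested.

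**Figure D1:**
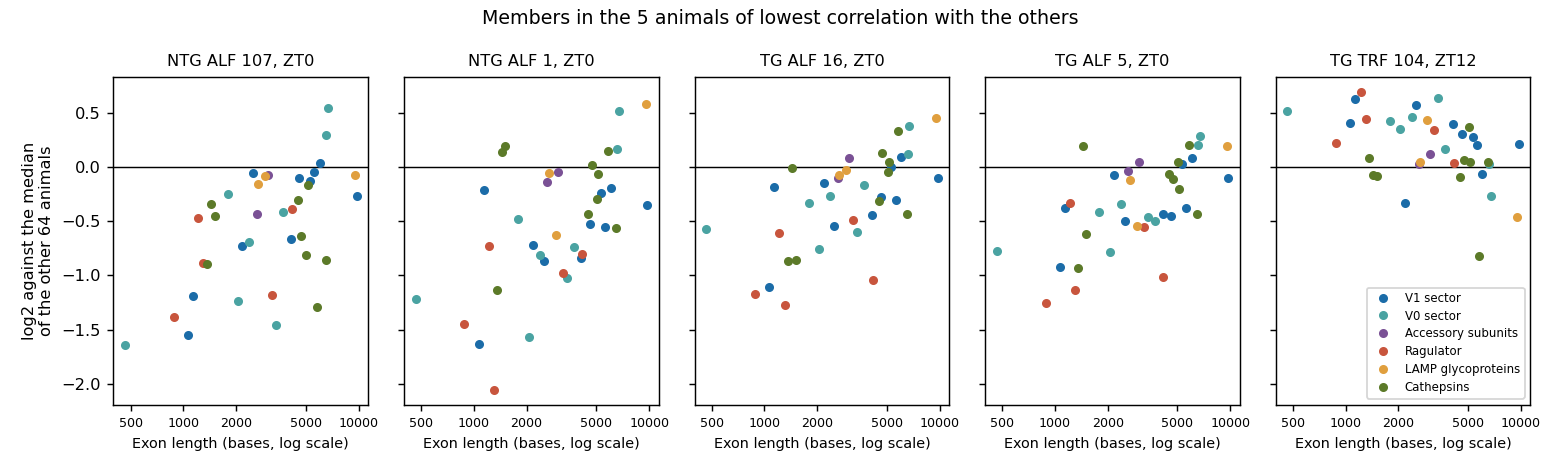
Level of each of the 37 members in the 5 animals of lowest correlation, as the log2 ratio to the median of the other 64 animals (y axis), by the length of the member's exons in bases (x axis, log scale), with 1 dot per member coloured by role. In the 4 animals killed at ZT0 the members with short exons lie mostly under 0, and in the animal killed at ZT12 most members lie above it.

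Across all animals members with short exons also varied more. The coefficient of variation (CV) had a median of 19.9% over the 13 members with less than 2500 bases of exon and 11.5% over the 24 longer ones. Over the 37 members its Spearman correlation with exon length was -0.51, a description across genes that share the same libraries. The steadiest members were Atp6ap1 (CV 5.10%), Lamp1 (5.79%), Ctsa (7.73%) and Atp6ap2 (7.82%). The widest were the pseudogene Atp6v0c-ps2 (34.5%), Atp6v1c2 (29.3%), Ctsk (28.1%) and Ctsc (26.9%), all of low level.

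In the V1 sector Atp6v1a, the catalytic subunit A, had the highest count of any member, 28352 ± 2567 normalized counts (SD, n = 69 here and for all levels in this and the next 5 paragraphs). Its partner Atp6v1b2, the brain form of subunit B, had 18862 ± 1590. Among the stalk subunits, which join the ATPase head to the membrane ring, Atp6v1g2, the neuronal form of subunit G, had 13140 ± 1761, Atp6v1e1 had 11756 ± 1464, Atp6v1c1 had 9606 ± 956 and Atp6v1d had 7926 ± 762. The regulatory subunit Atp6v1h had 6260 ± 553, the small subunit Atp6v1f had 2423 ± 530, and the general form of subunit G, Atp6v1g1, had 824 ± 164. Atp6v1c2, a form of subunit C best known from kidney and lung, was close to the lower end of the table at 49.3 ± 14.4. Exon length here counts all annotated exons of a gene, merged over its transcripts, and values per 1000 bases depend on that choice. Per 1000 bases of exon, Atp6v1g2 stood at a median of 7.16 times Atp6v1g1 (range over animals 4.56 to 15.9) and Atp6v1c1 at 77.2 times Atp6v1c2 (43.9 to 199). In every animal the neuronal or general form thus exceeded its relative.

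In the V0 sector Atp6v0a1, the subunit a found on synaptic vesicles, had 15229 ± 1334 normalized counts and Atp6v0a2, the form known from Golgi and endosomes, had 1716 ± 206. Per 1000 bases the ratio of the first to the second had a median of 9.18 (7.14 to 12.4). The proteolipid ring was represented by Atp6v0c with 13948 ± 2296 and Atp6v0b with 5654 ± 1072. Atp6v0d1, which caps the ring, had 7070 ± 642. Of the small subunit e, Atp6v0e2 had 13022 ± 1407 and Atp6v0e had 750 ± 143, a median ratio per 1000 bases of 27.2 (15.8 to 39.7). Atp6v0c-ps2 is a processed copy of Atp6v0c on chromosome 6 and had 88.9 ± 30.7. Of its 100-base windows 72.7% also occur in Atp6v0c, and 24.5% of the windows of Atp6v0c occur in it, so the authors' counting could split reads between them and both values are uncertain.

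The accessory subunits Atp6ap1, which serves assembly of the pump, and Atp6ap2, also called the prorenin receptor, had 12966 ± 661 and 9478 ± 741 normalized counts. Among the membrane glycoproteins Lamp1 had 11811 ± 684 and Lamp2, which also serves chaperone-mediated autophagy, had 3559 ± 657. Lamp1 exceeded Lamp2 per 1000 bases by a median of 11.7 times (7.75 to 17.2). The merged exons span 2675 bases in Lamp1 and 9552 in Lamp2, but the longest coding transcripts 2229 and 3604. By transcript length the ratio would be smaller. Lamp5, a relative confined mainly to neurons, had 1623 ± 351.

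Lamtor1, the lipid-anchored subunit that wraps the others, had 1998 ± 278 normalized counts. The pair Lamtor2 and Lamtor3 had 1162 ± 219 and 1302 ± 209. The pair Lamtor4 and Lamtor5 had 869 ± 201 and 934 ± 203.9. Per 1000 bases of exon the 5 subunits, which enter the complex in equal number, lay between 313.7 (Lamtor3) and 1057 (Lamtor5). The merged exons of Lamtor3 span 4151 bases, against 1295 in its longest coding transcript, while those of Lamtor5 span 884 against 881. This spread between subunits thus depends on the length used.

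The cathepsins ranged from 86.4 to 3298 normalized counts. Ctsa, a carboxypeptidase that also protects other lysosomal enzymes, was highest with 3298 ± 255. The endopeptidases Ctsl and Ctss had 2833 ± 393 and 2454 ± 474. Ctsf, whose loss in people gives a lysosomal storage disease of neurons, had 2061 ± 227. Ctso, a little-studied cysteine protease, had 1420 ± 128, and the carboxypeptidase Ctsz had 1338 ± 181. At the low end were Ctsc (365 ± 98.5), which activates serine proteases of immune cells, the aminopeptidase Ctsh (351 ± 67.8) and Ctsk (86.4 ± 24.3), the collagen-splitting enzyme of osteoclasts. Per 1000 bases of merged exon Ctss, at 1807, was first among the cathepsins, ahead of Ctsz at 928 and Ctsa at 699. The merged exons of Ctsf span 5041 bases, against 1980 in its longest coding transcript, so the order below Ctss depends on the length used.

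Several members share sequence with other genes, so that their counts are less sure. Ctsl shares 25.4% of its 100-base windows with Gm47123 and Gm49230, and Ctsa shares 11.6% with Neurl2 and Pltp. Lamtor3 shares 11.4%, Atp6v0a2 9% (with 4930404A12Rik) and Atp6v1g1 7.34%. How the authors' counting treated reads that match several places is not given in the sources used here.

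**Figure D2:**
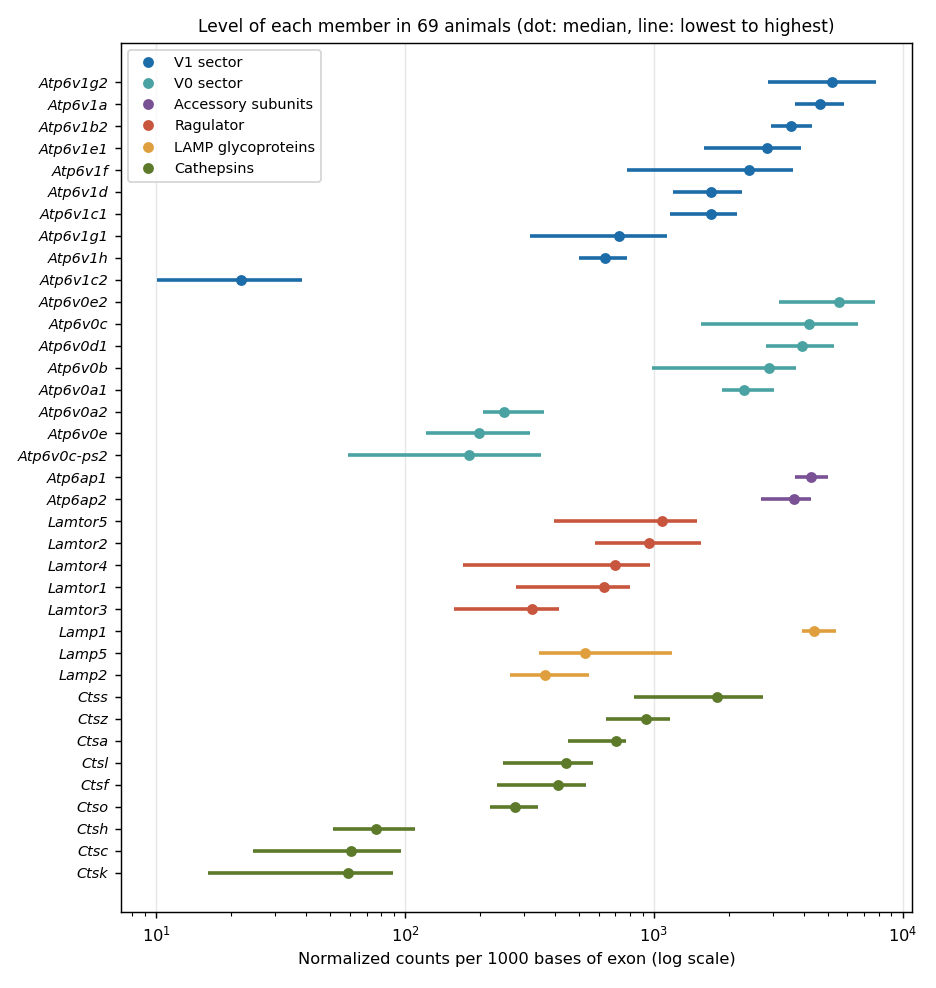
Normalized counts per 1000 bases of exon (x axis, log scale) of the 37 members, grouped and coloured by role, with the median over 69 animals as a dot and the lowest to highest animal as a line. V-ATPase subunits span from Atp6v1c2 at the bottom of the range to Atp6v0e2 and Atp6v1g2 at the top, and the cathepsins lie below most pump subunits.

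Because TFEB binds an E-box, the stretch just before each start site was searched for one. A RefSeq promoter (GRCm38.p6) was matched for 29 of the 37 members; Atp6v0a2, Lamtor3, Atp6v1h, Ctsh, Atp6v1b2, Atp6v0c-ps2, Atp6v1g1 and Atp6v1c1 were not matched. The motif CACGTG, which reads the same on both strands, occurred within 250 bases before the start in 8 of 29 members (27.6%): Atp6v0b, Atp6v1a, Ctsa, Ctsf, Ctsl, Lamp1, Lamtor1 and Lamtor4. The share was 6.86% of 27025 genes with a RefSeq promoter and 9.75% of the 11019 of them in the deposited table. The longer form TCACGTGA, which contains the first, occurred in 2 of 29 members, Atp6v1a and Ctsa (6.9%), against 0.907% and 1.7%. The still longer palindrome of the CLEAR consensus, the site described for TFEB, occurred in none of the 29 members, against 0.27% and 0.545%. These counts include bases that annotated exons cover. In the longest stretch of each window without annotated exons CACGTG occurred in 6 of the 29 members, without Ctsa and Ctsl, and TCACGTGA in 1 (Atp6v1a), and the shares over all genes were not recomputed that way. Windows of 6 members are shown, with transcribed bases left out and the E-box in capitals: Ctso and Ctsf because they changed with feeding and with time, Lamp1 because it holds the most E-boxes, Lamtor4 and Lamtor1 for Ragulator, and Atp6v1a for the longer form. Ctso (chr3:81932351-81932600, plus strand) held no E-box. Ctsf (chr19:4854915-4855129, plus strand) held 1, at 79 bases before the start. Lamp1 (chr8:13158911-13159160, plus strand) held 4, at 61, 45, 28 and 15 bases. Lamtor4 (chr5:138255232-138255481, plus strand) held 2, the farther at 120 bases. Lamtor1 (chr7:101905587-101905836, plus strand) held 1 at 68 bases, and Atp6v1a (chr16:44139306-44139461, minus strand) 1 at 131 bases. A match is a string of letters and says nothing of binding.
Ctso: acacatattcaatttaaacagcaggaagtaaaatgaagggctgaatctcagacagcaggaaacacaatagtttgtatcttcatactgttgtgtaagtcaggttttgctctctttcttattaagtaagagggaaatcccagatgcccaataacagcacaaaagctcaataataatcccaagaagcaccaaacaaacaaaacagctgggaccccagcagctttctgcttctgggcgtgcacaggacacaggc
Ctsf: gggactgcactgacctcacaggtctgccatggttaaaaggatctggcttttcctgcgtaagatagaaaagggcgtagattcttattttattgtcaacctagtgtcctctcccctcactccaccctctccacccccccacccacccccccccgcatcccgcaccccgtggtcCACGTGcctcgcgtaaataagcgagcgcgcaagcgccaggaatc
Lamp1: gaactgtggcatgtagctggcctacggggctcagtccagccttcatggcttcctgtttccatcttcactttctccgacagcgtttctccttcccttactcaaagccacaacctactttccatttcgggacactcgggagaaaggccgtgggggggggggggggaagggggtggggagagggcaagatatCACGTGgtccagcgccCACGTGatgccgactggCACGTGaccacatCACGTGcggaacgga
Lamtor4: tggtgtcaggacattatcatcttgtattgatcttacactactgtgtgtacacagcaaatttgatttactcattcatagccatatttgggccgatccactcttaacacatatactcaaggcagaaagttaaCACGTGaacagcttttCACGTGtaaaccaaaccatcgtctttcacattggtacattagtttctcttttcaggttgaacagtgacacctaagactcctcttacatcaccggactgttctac
Lamtor1: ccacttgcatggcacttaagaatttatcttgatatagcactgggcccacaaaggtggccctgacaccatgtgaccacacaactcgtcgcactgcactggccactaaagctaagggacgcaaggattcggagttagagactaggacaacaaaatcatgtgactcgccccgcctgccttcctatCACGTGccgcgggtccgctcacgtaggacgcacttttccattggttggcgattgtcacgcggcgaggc
Atp6v1a: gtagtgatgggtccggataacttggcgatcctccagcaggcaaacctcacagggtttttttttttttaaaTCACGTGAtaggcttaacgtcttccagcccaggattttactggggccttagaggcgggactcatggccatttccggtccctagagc

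The first comparison asked whether restricting food to 6 h of the night changed these genes. Of the 37 members 2 were called between feedings when the genotypes were averaged (limma, Benjamini-Hochberg over 14260 genes, threshold 0.05): Ctso rose on TRF and Atp6v0a2 fell. That is 5.41% of the members, while 1.68% of all genes were called. By direction 0.701% of all genes were higher on TRF and 0.975% lower. The other 35 members did not pass.

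Ctso lies on chromosome 3 (81932601 to 81956725, GRCm38, plus strand). On ALF its lowest, median and highest values over 35 animals were 1121, 1352 and 1587 normalized counts, and on TRF over 34 animals 1217, 1476 and 1745. The feedings overlapped, but the TRF median lay above most ALF animals. Among NTG mice the 16 on ALF had 1258, 1384 and 1587, and the 16 on TRF had 1351, 1523 and 1745. Among TG mice the 19 on ALF had 1121, 1326 and 1460, and the 18 on TRF had 1217, 1458 and 1670. Group means were 1392 ± 97.1 (NTG-ALF), 1532 ± 121.5 (NTG-TRF), 1321 ± 84.1 (TG-ALF) and 1450 ± 109.3 (TG-TRF; SD). In both genotypes the TRF mean was above the ALF mean by about 1 SD or more.

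The difference in Ctso was 0.13 ± 0.03 (log2, SE), a fold of 1.10, with a 95% interval of 0.08 to 0.19 and adjusted p = 0.00372 (limma), and its p ranked 14 of 14260 genes. It was 0.13 ± 0.04 within each genotype (adjusted p = 0.0575 in TG and 0.206 in NTG), so neither passed alone. The test of the difference between these effects gave 0.0025 ± 0.053. It stayed called in each of 14 other settings (adjusted p 0.00132 to 0.0299) and in each of 69 fits that left out 1 animal (largest adjusted p 0.00661). Among animals numbered under 300 it was 0.13 (adjusted p = 0.0436), and among those from 300 up 0.14 (adjusted p = 0.970).

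By time of sacrifice Ctso showed the same direction at all 4 times. At ZT0 the lowest, median and highest were 1258, 1352 and 1587 normalized counts in 7 NTG-ALF, 1351, 1473 and 1532 in 6 NTG-TRF, 1121, 1261 and 1454 in 6 TG-ALF, and 1220, 1400 and 1670 in 6 TG-TRF. At ZT6 the 1 NTG-ALF animal had 1286 and the 2 on TRF had 1580 and 1745. Also at ZT6 the 4 TG animals on ALF had 1327, 1354, 1410 and 1460, and the 4 on TRF had 1447, 1456, 1472 and 1508. These TG groups met only at their edges. At ZT12 the 6 NTG-ALF ran from 1372 to 1476 and the 6 on TRF from 1392 to 1703, while the 6 TG-ALF ran from 1260 to 1355 and the 5 on TRF had 1439, 1447, 1460, 1471 and 1543. At ZT12, 1 of 37 members, Ctso, showed TG groups on ALF and TRF that did not overlap, and 0.589% of all genes did so in either direction. Overlap over all genes was counted only in TG at ZT12, and in TG Ctso overlapped at ZT0, ZT6 and ZT18. The call of Ctso for feeding already includes these animals, so the count is no separate evidence. At ZT18, within the hours of food on TRF, NTG had 1315 and 1563 on ALF and 1411 and 1649 on TRF. TG at ZT18 had 1266, 1291 and 1418 on ALF and 1217, 1499 and 1501 on TRF, and here the groups overlapped. Averaged over genotypes, the log2 difference (± SE) was 0.13 ± 0.04 for ZT0, 0.23 ± 0.08 for ZT6, 0.15 ± 0.05 for ZT12 and 0.08 ± 0.07 for ZT18, and at no single time did Ctso pass over all genes (adjusted p 0.177, 1, 0.507 and 1, limma).

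Atp6v0a2 lies on chromosome 5 (124628576 to 124724455, GRCm38, plus strand). On ALF it had a lowest, median and highest value of 1438, 1779 and 2434 normalized counts, and on TRF 1381, 1616 and 1886. The highest ALF animals had no match on TRF. Group means were 1853 ± 261 (NTG-ALF), 1653 ± 139 (NTG-TRF), 1750 ± 198 (TG-ALF) and 1612 ± 133 (TG-TRF; SD). The difference was -0.13 ± 0.04 (log2, SE), a fold of 0.911, with a 95% interval of -0.21 to -0.06 and adjusted p = 0.0379 (limma). It was -0.12 ± 0.05 in TG (adjusted p = 0.223) and -0.15 ± 0.05 in NTG (adjusted p = 0.374).

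This call was less firm than that of Ctso. Without the 5 animals of lowest correlation, 4 of which were ALF at ZT0, the difference in Atp6v0a2 was -0.09 (adjusted p = 0.261), and with array weights -0.08 (adjusted p = 0.157). With the level of oligodendrocyte markers as a covariate it was -0.12 (adjusted p = 0.0874), and 17 of 69 fits that left out 1 animal lost the call (largest adjusted p 0.0664). At ZT0 its lowest, median and highest were 1619, 1843 and 2434 in NTG-ALF, 1418, 1624 and 1817 in NTG-TRF, 1550, 1889 and 2170 in TG-ALF, and 1492, 1594 and 1858 in TG-TRF. The difference there was -0.21 ± 0.06 (adjusted p = 0.115, limma). At ZT6 it was -0.01 ± 0.11, at ZT12 -0.09 ± 0.06 and at ZT18 -0.12 ± 0.10. Its relative Atp6v0a1 had a median of 8.75 times its level per 1000 bases on ALF (7.14 to 10.8) and 9.56 times on TRF (7.66 to 12.4).

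**Figure D3:**
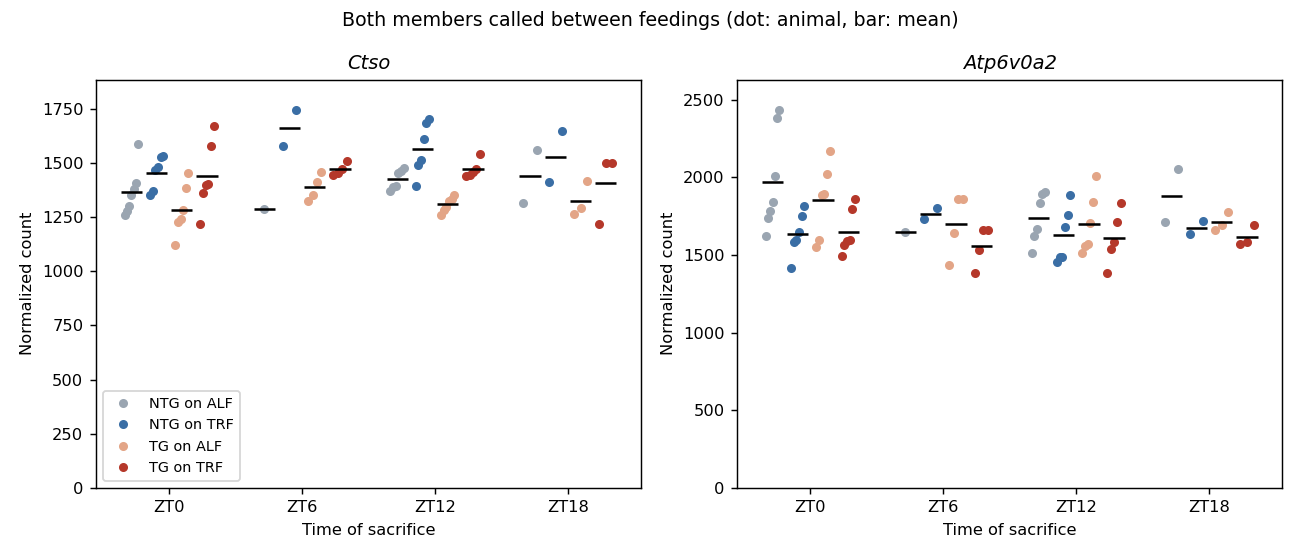
Normalized count (y axis) of Ctso (left) and Atp6v0a2 (right) by time of sacrifice (x axis) in the 4 groups, with 1 dot per animal and the group mean as a bar. Ctso on TRF stands above Ctso on ALF in both genotypes at most times, and the highest Atp6v0a2 values are ALF animals at ZT0.

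No other member passed. With all animals 28 of the 37 had a positive difference, with a median of 0.04 on the log2 scale, while the median over all genes was 0.0001. Without the 5 animals of lowest correlation 14 of 37 were positive, with a median of -0.006, so this direction rested on those animals. V1 subunits were positive in 9 of 10 (median 0.06), V0 in 7 of 8 (median 0.05), Ragulator in 5 of 5 (median 0.10) and cathepsins in 3 of 9 (median -0.04), and without the 5 animals V1 in 7 of 10, V0 in 3 of 8, Ragulator in 1 of 5 and cathepsins in 2 of 9. Next by p were Atp6v1e1 (0.12 ± 0.04, adjusted p = 0.105; 0.05 without the 5 animals, adjusted p = 0.569), Ctsz (-0.11 ± 0.05, adjusted p = 0.177), Ctsl (0.11 ± 0.05, adjusted p = 0.205) and Atp6v1c1 (0.07 ± 0.03, adjusted p = 0.234; limma). For 34 of 37 members the 95% interval lay within ±0.3 on the log2 scale, a fold of 1.23. The largest difference was that of Lamtor4, 0.15.

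Marker lists of other cells, for comparison, gave the following values between feedings. None of the 19 choroid plexus markers was higher on TRF (median -0.45 on the log2 scale, 0 called), and none of the 10 oligodendrocyte markers was (median -0.11, 3 called lower). The summed level of the oligodendrocyte markers was 160265 to 416231 normalized counts in NTG-ALF, 174424 to 246188 in NTG-TRF, 191396 to 270712 in TG-ALF and 158841 to 236104 in TG-TRF, and none of them was at 0 in any animal. Of the 10 excitatory neuron markers 8 were higher on TRF (median 0.05, 0 called). With the choroid plexus level or the oligodendrocyte level as a covariate Ctso kept a difference of 0.13 and 0.15.

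Within a genotype no member was called between feedings. In TG, where 0.54% of all genes were called, 8 of 37 members and 2433 of 14260 genes had an unadjusted p under 0.05. The members were led by Ctso, Atp6v1e1 (0.16 ± 0.06, adjusted p = 0.152) and Atp6v0a2. In NTG, where 0.0281% of all genes were called, 2 members (Ctso and Atp6v0a2) and 1065 genes did, followed by Ctsl (0.12 ± 0.07, adjusted p = 0.782). The interaction of genotype and feeding called none of all genes (0.0%), and 0 members and 745 genes had an unadjusted p under 0.05 (limma). Its smallest p values were those of Ctsa (-0.11 ± 0.06, adjusted p = 0.962), Lamp5 (0.23 ± 0.13, adjusted p = 0.968) and Atp6v0a1 (-0.10 ± 0.06, adjusted p = 0.976; limma).

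At single times feeding called no member. The share of all genes called was 0.0491% for ZT0, 0.00701% for ZT12 and 0.0% for both ZT6 and ZT18, and 7 members at ZT0, 3 at ZT12 and 1 at each of the others had an unadjusted p under 0.05. Over all genes these counts were 2420 at ZT0, 683 at ZT12, 183 at ZT6 and 497 at ZT18. After Atp6v0a2 and Ctso the next at ZT0 was Atp6v0e2 (0.16 ± 0.07, adjusted p = 0.220). At ZT6 Ctso was followed by Ctsl (0.19 ± 0.15) and Lamp1 (0.08 ± 0.06), each with adjusted p = 1 (limma). At ZT12 Ctso was followed by Atp6v1c2 (-0.41 ± 0.18, adjusted p = 0.984) and Ctsc (-0.30 ± 0.15, adjusted p = 0.9997). At ZT18 the first were Atp6v1h (0.17 ± 0.08), Ctsz (-0.23 ± 0.12) and Atp6v1c1 (0.15 ± 0.09), each with adjusted p = 1. NTG-ALF had 1 animal at ZT6, which limits that comparison.

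The second comparison asked whether the APP transgene changed these genes. No member was called between TG and NTG averaged over feedings, while 0.449% of all genes were, and 3 of 37 members had an unadjusted p under 0.05, beside 1157 of 14260 genes. The 3 were the cathepsins Ctso, Ctsc and Ctsh. Ctso was lower in TG (-0.09 ± 0.03, adjusted p = 0.192). Ctsc had a lowest, median and highest value of 141.8, 325.3 and 543.4 normalized counts in 32 NTG and 197.7, 395.3 and 556.8 in 37 TG, a difference of 0.22 ± 0.09 (adjusted p = 0.471). Ctsh had 238.8, 319.3 and 456.3 in NTG and 230.2, 364.9 and 491.1 in TG, a difference of 0.13 ± 0.06 (adjusted p = 0.564, limma). The genotypes overlapped over most of their range for both. Next came Ctsz, at 0.09 ± 0.05 (adjusted p = 0.624).

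Of the 37 members 28 were higher in TG, with a median of 0.03, and the median over all genes was 0.003. Leaving out the 5 animals gave 24 (median 0.01). With all animals cathepsins were higher in 8 of 9 (median 0.08), V1 subunits in 8 of 10 (median 0.02), V0 subunits in 6 of 8 (median 0.06), Ragulator in 3 of 5 (median 0.04) and Lamp genes in 1 of 3 (median -0.03). Without the 5 animals cathepsins were higher in 8 of 9 (median 0.08), V1 in 6 of 10 (0.008) and V0 in 6 of 8 (0.02). Ragulator was then higher in 3 of 5 (0.01) and Lamp genes in 1 of 3 (-0.05). In the fit of all animals the 95% interval lay within ±0.3 for 34 of 37 members. Markers of microglia, which express Ctss, Ctsc, Ctsh and Ctsz, were higher in TG in 13 of 13 (median 0.11, 0 called), with summed levels of 15520 to 21691 normalized counts in NTG-ALF and 17405 to 22708 in TG-ALF and no marker at 0 in any animal. The choroid plexus markers were higher in TG in 19 of 19 (median 0.65, 0 called). With the microglia level as a covariate the difference in Ctsc was 0.19 (adjusted p = 0.433) and that in Ctsh 0.06 (adjusted p = 0.766). With the choroid plexus level as a covariate these were 0.13 (adjusted p = 0.603) and 0.11 (adjusted p = 0.663, limma).

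Under each feeding alone no member was called between genotypes either. On ALF 0.189% of all genes were called (0.119% higher, 0.0701% lower) and 3 members had an unadjusted p under 0.05, beside 1041 genes: Ctsc (0.36 ± 0.13, adjusted p = 0.424), Ctsh (0.22 ± 0.09, adjusted p = 0.567) and Ctso (-0.09 ± 0.04, adjusted p = 0.605). Ctsc had group means of 338 ± 96.9 normalized counts in NTG-ALF, 342 ± 108 in NTG-TRF, 417 ± 89.1 in TG-ALF and 357 ± 87.1 in TG-TRF (SD). Ctsh had 329.1 ± 66.9, 331.5 ± 55.8, 387 ± 64.97 and 350 ± 70.5 in the same order. For both genes TG-ALF had the highest mean, within 1 SD of the others. On TRF 0.133% of all genes were called (0.0982% higher, 0.0351% lower) and 2 members had an unadjusted p under 0.05, beside 989 genes: Ctso (-0.08 ± 0.04, adjusted p = 0.697) and Atp6v1g1 (0.20 ± 0.10, adjusted p = 0.711), followed by Ctsf (0.10 ± 0.05, adjusted p = 0.717; limma).

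**Figure D4:**
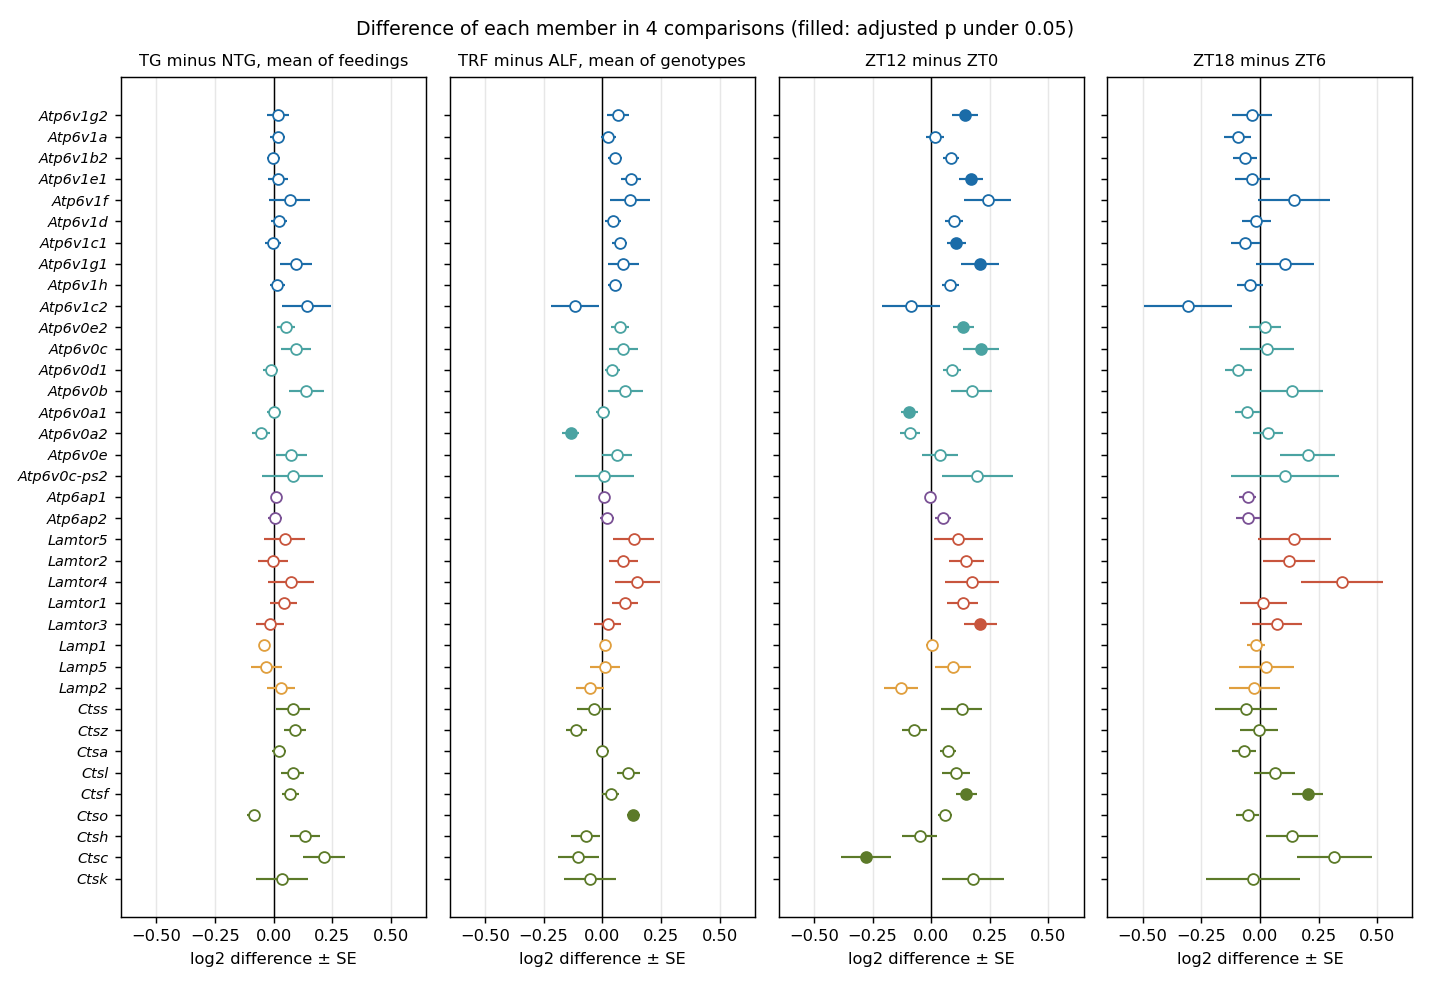
Difference of each of the 37 members (log2 ± SE, x axes) between genotypes, between feedings, between ZT12 and ZT0 and between ZT18 and ZT6, with members grouped by role on the y axis and filled dots for those called over all genes. Filled dots number 0, 2, 10 and 1 in the 4 panels.

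The third comparison was of times of sacrifice, with the 4 groups averaged. Over the 4 times 7 of 37 members were called (18.9%), while 35.6% of all genes were. They were Ctsf, Atp6v1g1, Lamtor3, Atp6v1e1, Atp6v1f, Lamtor5 and Ctsc. The fitted peak was at ZT12 for Ctsf, Atp6v1g1 and Atp6v1e1 and at ZT18 for Lamtor3, Atp6v1f, Lamtor5 and Ctsc. Without the 5 animals of lowest correlation 4 members were called: Ctsf, Atp6v1g1, Lamtor5 and Ctsc. With the number series as a covariate 3 were called: Ctsf, Atp6v1e1 and Atp6v1c1. The shares of all genes called in these fits are not given here. Of 69 fits that left out 1 animal, 43 lost the call of Ctsc (largest adjusted p 0.0758), 39 that of Lamtor5, 9 that of Atp6v1f, 3 that of Atp6v1e1 and 0 those of Ctsf, Atp6v1g1 and Lamtor3 (limma).

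Ctsf, the member with the smallest p, lies on chromosome 19 (4855130 to 4860918, GRCm38, plus strand). Its lowest, median and highest values were 1184, 2035 and 2220 normalized counts at ZT0, 1468, 1923 and 2197 at ZT6, 1776, 2203 and 2694 at ZT12, and 1976, 2107 and 2297 at ZT18. The medians at ZT12 and ZT18 stood above those at ZT0 and ZT6, with overlap. Group means were 2033 ± 279 (NTG-ALF), 2019 ± 197 (NTG-TRF), 2050 ± 214 (TG-ALF) and 2136 ± 214 (TG-TRF; SD). The range over times was 0.25 on the log2 scale (adjusted p = 0.000816). ZT12 was above ZT0 by 0.15 ± 0.04 (adjusted p = 0.00666) and ZT18 above ZT6 by 0.20 ± 0.07 (adjusted p = 0.0398, limma). Without the 5 animals these were 0.10 (adjusted p = 0.0367) and 0.19 (adjusted p = 0.00589). Of 69 fits that left out 1 animal 10 lost the call between ZT18 and ZT6 (largest adjusted p 0.109). It was also lost with each library scaled to the same total (0.22, adjusted p = 0.0639) and with quantile normalization (0.19, adjusted p = 0.0502, limma).

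Between ZT12 and ZT0 10 of 37 members were called (27%), near the 27.9% of all genes. Of them 8 were higher at ZT12, while 14.4% of all genes were, and 2 were lower, while 13.6% of all genes were. The higher ones were Ctsf, 4 V1 subunits (Atp6v1e1, Atp6v1c1, Atp6v1g2 and Atp6v1g1), 2 V0 subunits (Atp6v0e2 and Atp6v0c) and Lamtor3. The lower ones were Ctsc and Atp6v0a1. Without the 5 animals only Ctsf and Ctsc were called (5.41%), and the share of all genes was 17.2%. Leaving out single animals gave 4 to 13 members: 4 without NTG-ALF animal 1, 5 without the TG-TRF animal, and 6 without TG-ALF animal 16 or animal 5. Shares of all genes are not given for these fits. Of 69 such fits 26 lost the call of Atp6v1g1, 20 each those of Ctsc and Atp6v0a1, 16 that of Atp6v1g2, 10 that of Atp6v1c1, 2 that of Atp6v0c and 0 those of the other 4.

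Among the V1 subunits Atp6v1e1 had a lowest, median and highest value of 6562, 11347 and 13728 normalized counts at ZT0, 10456, 11745 and 16100 at ZT6, 10882, 11936 and 15459 at ZT12, and 10620, 11477 and 13150 at ZT18. The medians were close, and the ZT0 group reached lower. Means by group were 11363 ± 1901 (NTG-ALF), 11988 ± 946 (NTG-TRF), 11212 ± 1095 (TG-ALF) and 12474 ± 1500 (TG-TRF; SD). ZT12 was above ZT0 by 0.17 ± 0.05 (adjusted p = 0.00792, limma), and by 0.07 without the 5 animals (adjusted p = 0.189).

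Between ZT12 and ZT0 the G subunits differed in level but not in direction. Atp6v1g1 had 362, 820 and 1053 at ZT0 (lowest, median, highest), 442, 787 and 1275 at ZT6, 698, 900 and 1282 at ZT12, and 658, 751 and 862 at ZT18. By group it averaged 818 ± 176 (NTG-ALF), 796 ± 133 (NTG-TRF), 791 ± 165 (TG-ALF) and 891 ± 173 (TG-TRF). ZT12 had the highest median. The difference from ZT0 was 0.21 ± 0.08 (adjusted p = 0.0454, limma), and 0.11 without the 5 animals (adjusted p = 0.318), although the test over the 4 times passed in both fits (adjusted p = 0.0145 and 0.0156). Atp6v1g2 had 7219, 12720 and 17330 at ZT0, 11913, 13219 and 14449 at ZT6, 11262, 13450 and 19692 at ZT12, and 11233, 12305 and 15006 at ZT18. The groups averaged 12916 ± 1925, 13227 ± 1543, 12789 ± 1583 and 13631 ± 1982 in the same order of groups. The 4 times overlapped over most of their range. Its difference was 0.14 ± 0.06 (adjusted p = 0.0428), and 0.04 without the 5 animals (adjusted p = 0.540).

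Atp6v1c1, the stalk subunit that binds actin and controls assembly, had 6498, 9419 and 10975 normalized counts at ZT0, 8236, 9417 and 11932 at ZT6, 8930, 9556 and 12095 at ZT12, and 7906, 9644 and 10382 at ZT18. Group means were 9403 ± 1150 (NTG-ALF), 9783 ± 941 (NTG-TRF), 9335 ± 930 (TG-ALF) and 9915 ± 737 (TG-TRF). Medians differed by little, and ZT12 exceeded ZT0 by 0.11 ± 0.04 (adjusted p = 0.0381, limma), or 0.06 without the 5 animals (adjusted p = 0.327). Atp6v1f had 827, 2289 and 2946 at ZT0, 1859, 2673 and 3866 at ZT6, 1854, 2559 and 3408 at ZT12, and 2332, 2746 and 3288 at ZT18. Means by group were 2324 ± 645, 2376 ± 373, 2368 ± 512 and 2613 ± 549 in the same order. The ZT0 group reached lower than the other times. It passed the test over 4 times (range 0.41, adjusted p = 0.0370) but not without the 5 animals (range 0.23, adjusted p = 0.148). Atp6v1b2 and Atp6v1d fell short between ZT12 and ZT0 (0.08 ± 0.03, adjusted p = 0.0574, and 0.10 ± 0.04, adjusted p = 0.0594).

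Among the V0 subunits Atp6v0c had a lowest, median and highest value of 5245, 13653 and 15810 normalized counts at ZT0, 11145, 14461 and 18103 at ZT6, 9818, 15183 and 22434 at ZT12, and 12517, 14138 and 15594 at ZT18. By group it averaged 13384 ± 3106 (NTG-ALF), 13691 ± 1464 (NTG-TRF), 13813 ± 1932 (TG-ALF) and 14822 ± 2356 (TG-TRF). ZT12 held the highest animal and ZT0 the lowest. The difference was 0.21 ± 0.08 (adjusted p = 0.0278, limma), and 0.05 without the 5 animals (adjusted p = 0.508). Atp6v0e2 had 7602, 12780 and 14344 at ZT0, 11427, 12881 and 13684 at ZT6, 11818, 13784 and 18347 at ZT12, and 12009, 12753 and 13908 at ZT18. The groups averaged 12638 ± 2064, 13027 ± 777, 12811 ± 1049 and 13580 ± 1395 in the same order. Its median was highest at ZT12. The difference was 0.14 ± 0.05 (adjusted p = 0.0199), and 0.04 without the 5 animals (adjusted p = 0.406).

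Atp6v0a1 was the only pump subunit called lower at ZT12. It had 12339, 16012 and 19900 normalized counts at ZT0, 12538, 15157 and 17209 at ZT6, 13076, 15077 and 16977 at ZT12, and 13584, 14711 and 15303 at ZT18. Group means were 14955 ± 1299 (NTG-ALF), 15514 ± 1539 (NTG-TRF), 15448 ± 1277 (TG-ALF) and 14987 ± 1242 (TG-TRF). ZT0 had the highest median and the widest spread. The difference was -0.09 ± 0.04 (adjusted p = 0.0436, limma), and -0.07 without the 5 animals (adjusted p = 0.198).

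In Ragulator all 5 subunits had a higher level at ZT12 than at ZT0 (median 0.15), and 1 of 5 passed, beside 27.9% of all genes. Without the 5 animals of lowest correlation 2 of 5 were higher at ZT12 (median -0.009) and 0 passed, beside 17.2% of all genes. Lamtor3 had a lowest, median and highest value of 652, 1240 and 1551 normalized counts at ZT0, 1226, 1335 and 1490 at ZT6, 940, 1345 and 1720 at ZT12, and 1312, 1411 and 1523 at ZT18. Means by group were 1310 ± 201 (NTG-ALF), 1280 ± 187 (NTG-TRF), 1282 ± 266 (TG-ALF) and 1336 ± 177 (TG-TRF). ZT0 and ZT12 reached lower than the other times. ZT12 exceeded ZT0 by 0.21 ± 0.07 (adjusted p = 0.0203, limma), and by 0.09 without the 5 animals (adjusted p = 0.301).

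The pair Lamtor4 and Lamtor5 had high medians at ZT18. Lamtor5 had 351, 917 and 1321 at ZT0, 904, 971 and 1195 at ZT6, 605, 916 and 1142 at ZT12, and 994, 1079 and 1245 at ZT18. By group it averaged 892 ± 255 (NTG-ALF), 924 ± 159 (NTG-TRF), 909 ± 221 (TG-ALF) and 1007 ± 163 (TG-TRF). The ZT18 animals all lay above the medians of the other 3 times. It passed over the 4 times with all animals (range 0.41, adjusted p = 0.0475) and without the 5 (range 0.32, adjusted p = 0.0160, limma). The call was lost in 39 of 69 fits that left out 1 animal (largest adjusted p 0.0775), with the choroid plexus level (adjusted p = 0.0513) or the oligodendrocyte level (adjusted p = 0.0509) as a covariate, and with the number series (adjusted p = 0.522, limma). Lamtor4 had 222, 859 and 1177 at ZT0, 508, 830 and 1127 at ZT6, 597, 932 and 1257 at ZT12, and 809, 969 and 1118 at ZT18. The groups averaged 847 ± 232.8, 857 ± 163, 829.3 ± 221 and 942 ± 176 in the same order. ZT18 had the highest median and the highest lowest value. ZT18 was above ZT6 by 0.35 ± 0.17 (adjusted p = 0.243), and by 0.34 without the 5 animals, where it passed (adjusted p = 0.0396).

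Ctsc was lower at ZT12 than at ZT0. Its lowest, median and highest values were 141.8, 399.9 and 552.6 normalized counts at ZT0, 246.5, 305.1 and 452.1 at ZT6, 197.7, 320.7 and 482.4 at ZT12, and 257.9, 424.8 and 556.8 at ZT18. Levels were higher at ZT0 and ZT18 than at ZT6 and ZT12, with overlap. ZT12 was below ZT0 by a log2 difference of -0.28 ± 0.11 (adjusted p = 0.0411), and -0.31 without the 5 animals (adjusted p = 0.0218, limma). The call was lost in 20 of 69 fits that left out 1 animal, with ZT0 and ZT12 animals only (adjusted p = 0.0534), with numbers under 300 only (adjusted p = 0.0788) and with each library scaled to the same total (adjusted p = 0.0759). ZT18 exceeded ZT6 by 0.32 ± 0.16 without passing (adjusted p = 0.245). Among microglial markers 1 of 13 was called higher and 3 lower at ZT12 than at ZT0, and endothelial markers were lower in 8 of 8, with 6 called. Endothelial summed levels were 2685 to 9066 normalized counts in NTG-ALF, 4646 to 8544 in NTG-TRF, 3608 to 9234 in TG-ALF and 2931 to 7899 in TG-TRF, with none at 0. With the microglia level as a covariate the difference in Ctsc was -0.28 (adjusted p = 0.0335), and with the choroid plexus level -0.21 (adjusted p = 0.0233, limma). The endothelial part in these values was not tested.

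**Figure D5:**
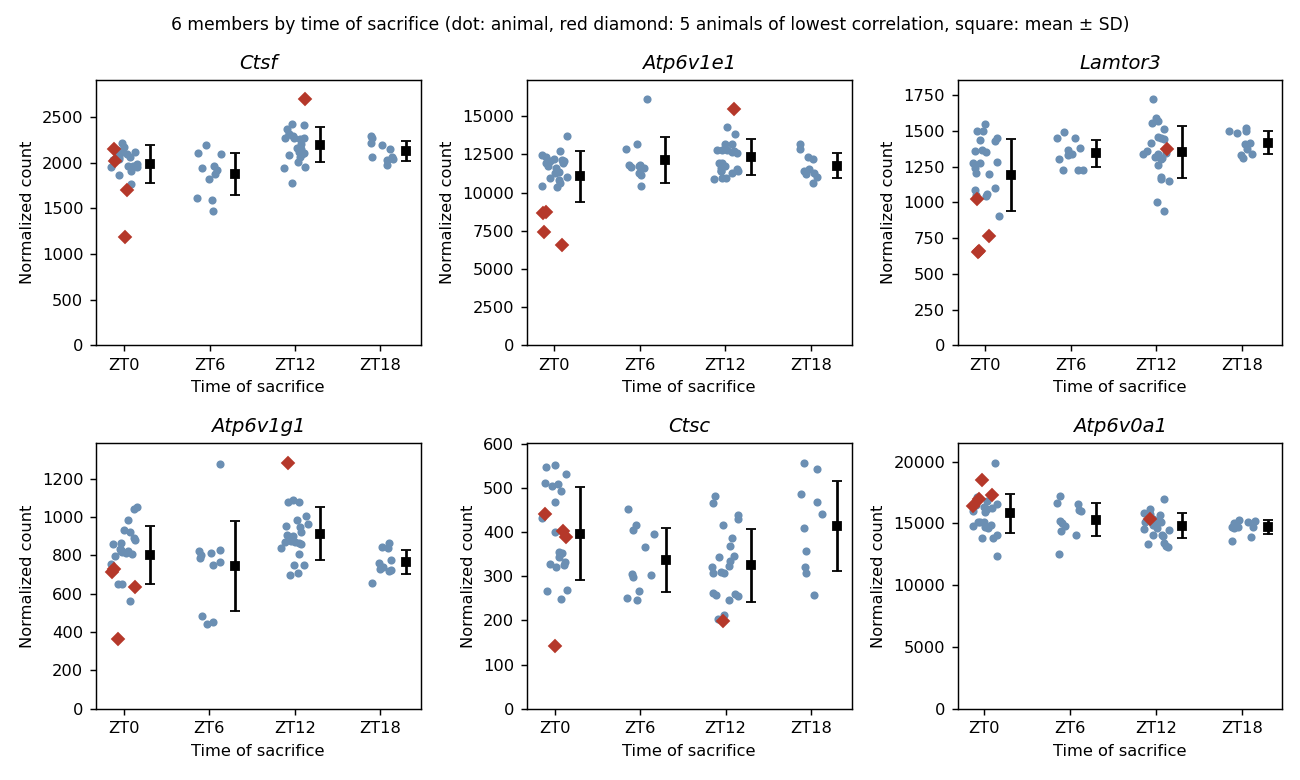
Normalized count (y axes, from 0) of Ctsf, Atp6v1e1, Lamtor3, Atp6v1g1, Ctsc and Atp6v0a1 by time of sacrifice (x axes), with a dot for each animal, a red diamond for the 5 animals of lowest correlation and a square with bars for the mean ± SD of all animals at that time. The diamonds at ZT0 hold the lowest values of Atp6v1e1, Lamtor3 and Atp6v1g1.

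Between ZT18 and ZT6, animals of a single number series, only Ctsf was called of 37 members, while 8.04% of all genes were (4.27% higher at ZT18, 3.77% lower), and no other member had an unadjusted p under 0.05, beside 2942 of all genes. With the 5 animals of lowest correlation left out 2 members were called, Ctsf and Lamtor4 (5.41%), and the share of all genes was 11.3%. After Ctsf, Lamtor4 and Ctsc, the next by p were Atp6v0e (0.20 ± 0.12, adjusted p = 0.316), Atp6v1a (-0.10 ± 0.06, adjusted p = 0.352), Atp6v1c2 (-0.31 ± 0.19, adjusted p = 0.358), Atp6v0d1 (-0.09 ± 0.06, adjusted p = 0.369), Atp6ap1 (-0.05 ± 0.04, adjusted p = 0.432), Ctsa (-0.07 ± 0.05, adjusted p = 0.495) and Ctsh (0.14 ± 0.11, adjusted p = 0.533; limma). V1 subunits were higher at ZT18 in 2 of 10 (median -0.04) and Ragulator in 5 of 5 (median 0.12). For 23 of 37 members the 95% interval lay within ±0.3, and for 33 within ±0.5.

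The levels of these members were as follows. Atp6v0e had a median of 685 normalized counts at ZT0 (450 to 1174), 726 at ZT6 (553 to 858), 732 at ZT12 (555 to 940) and 844 at ZT18 (622 to 1086), with group means of 712 ± 136.3 (NTG-ALF), 742 ± 150 (NTG-TRF), 751 ± 135.1 (TG-ALF) and 791 ± 153 (TG-TRF). Atp6v1a had a median of 27791 at ZT0 (22277 to 33096), 30066 at ZT6 (24565 to 34776), 27670 at ZT12 (25076 to 35080) and 28642 at ZT18 (23026 to 31022), with group means of 27660 ± 2663, 28416 ± 2864, 28415 ± 2229 and 28843 ± 2625 in the same order. The first was highest at ZT18 and the second at ZT6, with wide overlap. Atp6v1c2 had medians of 47.5 (29.9 to 73.6), 55.3 (36.2 to 78.9), 46.2 (21.9 to 83.4) and 42.5 (22.6 to 79.5) from ZT0 to ZT18, with group means of 49.7 ± 16.2, 43.3 ± 11.8, 51.9 ± 12.4 and 51.7 ± 16.4. Atp6v0d1 had medians of 7030 (5066 to 8080), 6997 (6825 to 7717), 7195 (6280 to 9472) and 6603 (6343 to 7317), with group means of 7044 ± 709, 7165 ± 428, 6914 ± 660 and 7174 ± 732. Both had their lowest median at ZT18. Atp6ap1 had medians of 13183 (11831 to 15145), 12769 (11579 to 13824), 13035 (11999 to 14167) and 12360 (11137 to 13210), with group means of 12933 ± 685, 12982 ± 793, 12949 ± 626 and 13000 ± 602. Ctsa had medians of 3343 (2136 to 3641), 3321 (3078 to 3545), 3440 (3039 to 3655) and 3132 (2859 to 3580), with group means of 3225 ± 351, 3335 ± 219, 3375 ± 177 and 3248 ± 247. These too were lowest at ZT18, within the spread of the other times. Ctsh had medians of 331.2 (255 to 488), 372 (230 to 491), 318.6 (239 to 456) and 401 (317 to 474), the highest at ZT18.

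Within single groups no member was called between ZT12 and ZT0, where the share of all genes called was 2.17% in NTG-ALF, 0.596% in NTG-TRF, 2.22% in TG-ALF (1.01% higher, 1.21% lower) and 3.55% in TG-TRF (1.48% higher, 2.07% lower). The members with an unadjusted p under 0.05 numbered 2, 0, 5 and 3, and all genes with one numbered 2686, 1224, 2587 and 2328 in the same order. In NTG-ALF the first were Atp6v1e1 (0.23 ± 0.10, adjusted p = 0.195), Atp6v0c (0.32 ± 0.15, adjusted p = 0.235) and Atp6v0a2 (-0.17 ± 0.09, adjusted p = 0.268). In NTG-TRF they were Ctsc (-0.36 ± 0.20, adjusted p = 0.680), Ctso (0.10 ± 0.06, adjusted p = 0.744) and Lamtor3 (0.22 ± 0.15, adjusted p = 0.796). In TG-ALF they were Atp6v0e2 (0.22 ± 0.09, adjusted p = 0.203), Lamtor3 (0.34 ± 0.15, adjusted p = 0.203) and Atp6v1g1 (0.35 ± 0.16, adjusted p = 0.221). In TG-TRF they were Ctsf (0.27 ± 0.09, adjusted p = 0.0783), Atp6v1g1 (0.36 ± 0.17, adjusted p = 0.247) and Atp6v1c2 (-0.56 ± 0.26, adjusted p = 0.255; limma). A call or its absence in single groups does not show that the groups differ, which was tested separately.

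The difference of that change between groups called no gene at all (0.0%) and 0 members had an unadjusted p under 0.05 in any of the 4 tests, where at most 624 of all genes did. For TRF against ALF the smallest p values in NTG were those of Atp6v0c-ps2 (-0.80 ± 0.42), Atp6v1h (-0.16 ± 0.10) and Atp6v0c (-0.33 ± 0.22), and in TG those of Atp6v1c2 (-0.61 ± 0.36), Ctsa (0.14 ± 0.10) and Lamtor5 (-0.40 ± 0.31). For TG against NTG they were Ctsa (-0.15 ± 0.10), Ctsc (-0.42 ± 0.28) and Atp6v1g1 (0.20 ± 0.22) on ALF and Ctsf (0.22 ± 0.12), Atp6v1g1 (0.38 ± 0.23) and Atp6v0e (0.32 ± 0.22) on TRF. Adjusted p was 0.995 or more for each of these 12 values (limma). The intervals were wide: for TRF against ALF in NTG that of 9 of 37 members lay within ±0.3.

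Within a group and time, animals with more of 1 subunit often had more of its partner. After the mean of each group and time was removed, Atp6v1a and Atp6v1b2, which form the ATP-splitting head, had r = 0.82 and rho = 0.80 over 69 animals (permutation test with 100000 resamples, p = 1e-05 for both, the smallest they can give, adjusted p = 4e-05 over 8 pairs). Lamtor1 and Lamtor2 had r = 0.78 and rho = 0.82 (p = 1e-05 for both, adjusted p = 4e-05). Atp6ap1 and Atp6ap2 had r = 0.58 and rho = 0.59 (p = 3e-05, adjusted p = 8e-05). Without the 2 animals farthest from the median of the first gene, r was 0.79, 0.77 and 0.60. Among animals numbered under 300 it was 0.76, 0.84 and 0.45, and among those from 300 up 0.95, 0.75 and 0.88.

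Other pairs were weaker. Ctsa and Ctsl had r = 0.54 and rho = 0.41 (permutation p = 0.00048 and 0.0021, adjusted p = 0.00096 and 0.0043), and r = 0.41 without the 2 farthest animals. Ctss and Ctsz, both microglial, had r = 0.26 and rho = 0.28 (permutation p = 0.029 and 0.033, adjusted p = 0.047 and 0.053). Lamp1 and Lamp2 had r = 0.25 and rho = 0.24 (adjusted permutation p = 0.11 and 0.13). The alternative forms Atp6v1g1 and Atp6v1g2 had r = 0.11 and rho = 0.15 (adjusted permutation p = 0.5 and 0.31). Atp6v0a1 and Atp6v0d1, neighbours in the V0 sector, had r = -0.06 and rho = 0.10 (adjusted permutation p = 0.68 and 0.46), and r = 0.16 without the 5 animals of lowest correlation. All points share the libraries' composition, so a level common to many genes enters each r.

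Other genes of the pathway, from lists set by known function, were tested for feeding and genotype in the same fit. With feeding, where 1.68% of all genes were called, 0 of 14 V-ATPase assembly factors and regulators were called, 2 of 36 genes of the mTORC1 and TFEB axis, 0 of 29 other lysosomal membrane proteins, 1 of 42 soluble hydrolases and cofactors, and 0 of 5 cathepsin inhibitors. The 2 were Nprl3 (0.14 ± 0.04, adjusted p = 0.0364) and Seh1l (0.11 ± 0.03, adjusted p = 0.0426), of the GATOR complexes that relay amino acid supply to the Rag GTPases that Ragulator anchors, and both rose on TRF. The 1 was Lipa, lysosomal acid lipase, which fell by 0.17 on the log2 scale (SE 0.05, adjusted p = 0.0453, limma). Tfeb did not pass (-0.11 ± 0.08, adjusted p = 0.432). With genotype none of these genes was called, beside 0.449% of all genes.

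Among the same lists more genes were called for time of sacrifice. Over the 4 times 19 of 36 genes of the mTORC1 and TFEB axis were called (52.8%), 6 of 14 assembly factors and regulators (42.9%), 9 of 29 membrane proteins (31%) and 14 of 42 hydrolases (33.3%), beside 35.6% of all genes and 13 of 14 clock genes. Whether the axis and the members differ in this was not tested. Between ZT12 and ZT0 11 genes of the axis were called higher and 7 lower, beside 14.4% and 13.6% of all genes. Rraga, which Ragulator anchors, rose by 0.18 ± 0.04 (adjusted p = 0.000606), and Rptor, which the Rag GTPases bind, was at -0.16 ± 0.04 (adjusted p = 0.00329). Ccdc115, an assembly factor of the pump, was at 0.27 ± 0.07 (adjusted p = 0.00242), and Cstb, an inhibitor of cathepsins, at 0.31 ± 0.10 (adjusted p = 0.0106, limma).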

How the data were processed

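The authors deposited a normalized expression signal per gene, the read count divided by 1 factor per library; in the deposited table all values (100%, within 0.01 of a step) were whole multiples of 1 step per library. Reads were trimmed with Trimmomatic on Galaxy, per the labels' protocols, and HISAT2, featureCounts, DESeq2 and GRCm38 are named in the submitters' processing notes; versions, settings and strand are not given in the sources used here. The 70 libraries were taken as 69 animals: library 232R was read as a repeat of 232, a reading the labels do not give, and their mean was used. No gene mean lay under 40.9, so a filter of unstated form came before deposition.

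Values were taken as log2(value + 1), so a log2 difference slightly understates the change of low genes. Each test across genes was limma's moderated test (limma 3.58.1, R 4.3.3; variance trend, robust, 2-sided) with p adjusted over all 14260 genes by Benjamini-Hochberg (threshold 0.05), and all animals shared 1 estimate of the spread. Genotype, feeding and time came from 4 group means plus time, and changes within groups from 16 means; p-values measure the spread between these animals. Pair correlations used Python 3.11.15, permuting within group and time. Members, lists and tests were chosen with earlier results of these data known, and the alternatives by number series and the members' directions without 5 animals after seeing the data. Named in full are members called for feeding or genotype and the 10 of smallest p for each time comparison; where none was called, the 3 of smallest p. Exon lengths (all annotated exons of a gene, merged) and positions are from GENCODE M21 (GRCm38). The fits were tested on simulated data.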

Additional observations from a re-analysis of the deposited data

How the results depend on the processing

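Of 1346 values recomputed under the other settings, apart from those that leave out 1 animal, 1261 were counted as the same. For a difference in a single member this meant the same direction and side of the threshold. For the test over the 4 times it meant the same side alone. For a count of members it meant a change within a set fold, and for a pair the same sign of r. The number of members called over the 4 times was 7, and became 11 with quantile normalization, 11 with the microglia level as a covariate, 3 with the number series as a covariate and 4 without the 5 animals of lowest correlation. Between ZT12 and ZT0 it was 10, and became 3 with array weights, 2 without the 5 animals, 5 with ZT0 and ZT12 animals only, 5 with numbers under 300 and 0 with numbers from 300 up. Between ZT18 and ZT6 it was 1, and became 0 with each library scaled to the same total, 0 with quantile normalization and 2 without the 5 animals. Between feedings it was 2, and became 1 with array weights, 1 with the oligodendrocyte covariate, 1 without the 5 animals, 1 with no term for time, 1 with ZT0 and ZT12 animals only, 1 with numbers under 300, 0 with numbers from 300 up and 4 with the microglia covariate. Within TG it was 0, and became 1 with array weights and 2 with the microglia covariate. Between ZT12 and ZT0 in TG-TRF it was 0, and became 1 with array weights and 6 with the microglia covariate. Without the 5 animals the share of all genes called was 17.2% between ZT12 and ZT0 (27.9% with all animals). It was 11.3% between ZT18 and ZT6 (8.04%) and 0.386% between feedings (1.68%). For the other settings, and for the test over the 4 times, the share of all genes is not given here. The counts above can thus hold shifts common to all genes. A changed count does not by itself show a change particular to the members. The cause of these shifts was not tested. Fits on part of the animals also hold fewer animals.

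Leaving out each animal in turn gave 3 to 8 members over the 4 times, 4 to 13 between ZT12 and ZT0, 0 to 1 between ZT18 and ZT6, 1 to 2 between feedings, 0 to 1 between feedings in TG, 0 to 1 between ZT12 and ZT0 in TG-TRF, and 0 to 1 between feedings at ZT0. The lowest counts over the 4 times (3) came without TG-ALF animals 16 or 5. Here too the shares of all genes are not given, so these ranges can hold shifts common to all genes. For feeding at ZT6 no value could be had without the 1 NTG-ALF animal. Signs changed for Atp6v0c between ZT12 and ZT0 in NTG-ALF (-0.044 without the 5 animals), for Atp6v0c in the difference of that change between feedings in NTG (0.027 without the 5 animals), for Lamtor3 between ZT12 and ZT0 (-0.026 with numbers from 300 up, a series with 2 animals at ZT0 and 1 at ZT12) and for the pair Atp6v0a1 and Atp6v0d1 (r = 0.34 with numbers from 300 up, and 0.16 without the 5 animals). Without the 5 animals the members higher on TRF went from 28 to 14 of 37. No paired analysis was possible because the animal numbers in the titles are unique and no number is shared between groups. In 20 sets of 4 to 10 animals no value of Ctso or Atp6v0a2 stood apart by Dixon's criterion.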
